A study of Glycine max with 14 samples.

Results

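Soybean (Glycine max) cotyledons of cultivar Williams were compared between stages 2 and 1 of germination. The comparison takes 4 of the 14 RNA sequencing libraries of a series of 7 stages with 2 biological replicates each, and its members were chosen by the stage and replicate in the sample labels. Stage 1 (replicates 1 and 2) was collected 1 day after imbibition, the uptake of water by the dry seed. Stage 2 (replicates 1 and 2) was collected 2 days after planting. All plants were grown in a greenhouse, with no mutation or treatment named, and all tissue was lyophilized before total RNA was taken. The labels call the replicates biological, but do not say how many seedlings each held, so p-values measure the spread between these libraries.

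Soybean cotyledons are the storage leaves of the embryo. They are filled with protein and oil during seed development, break both down after germination to feed the seedling, and then turn green and photosynthesize. Storage globulins (glycinin and beta-conglycinin) hold most of the seed protein, isocitrate lyase and malate synthase are the 2 enzymes particular to the glyoxylate cycle that turns fatty acids into sugar precursors, and the small subunit of Rubisco belongs to the enzyme that fixes carbon dioxide. Levels are given as RPKM, which scales reads by the length of the gene model and the size of the library. Differences are on the log2(RPKM + 1) scale, on which 1 unit is called 2-fold. That scale understates the change of models near 1 RPKM or below.

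The files pair their gene model identifiers with no gene name, and 0 of them matched the 59048 genes of the RefSeq table (assembly Glycine_max_v4.0). Gene groups were therefore read from 15 lists of 81 identifiers known as members of named soybean gene families. The names of the lists are therefore assumed. As a partial check, RefSeq places a symbol of the same family on the chromosome numbered in the identifier for 79 of the 81. Of the 81 identifiers, 80 were in the files and 68 passed the filter of at least 1 RPKM in at least 2 of the 14 libraries. The list of isocitrate lyase and malate synthase was added after the files had been read. No coordinates or sequences are given, because the identifiers could not be matched.

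The 2 stage 1 libraries differed from each other about as much as stage 1 replicate 1 differed from stage 2. Across the 44450 tested models, 14197 (31.9%) were at least 2-fold apart between the stage 1 replicates, 9910 of them (22.3%) higher in replicate 2 and 4287 (9.64%) lower. The stage 2 replicates were 2-fold apart at 1791 models (4.03%), and the replicates of stages 3 to 7 at 3.47% to 6.74%. Stage 1 replicate 2 was closer to stage 2 than to its own replicate, with 7.65% and 8.25% of models 2-fold apart from stage 2 replicates 1 and 2. Stage 1 replicate 1 was 35.3% and 38.2% apart from the same libraries. The correlation of log2 values across models, which share length and libraries and are no replicates, was 0.803 between the stage 1 replicates and 0.932 and 0.926 between stage 1 replicate 2 and the stage 2 libraries.

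**Figure D1:**
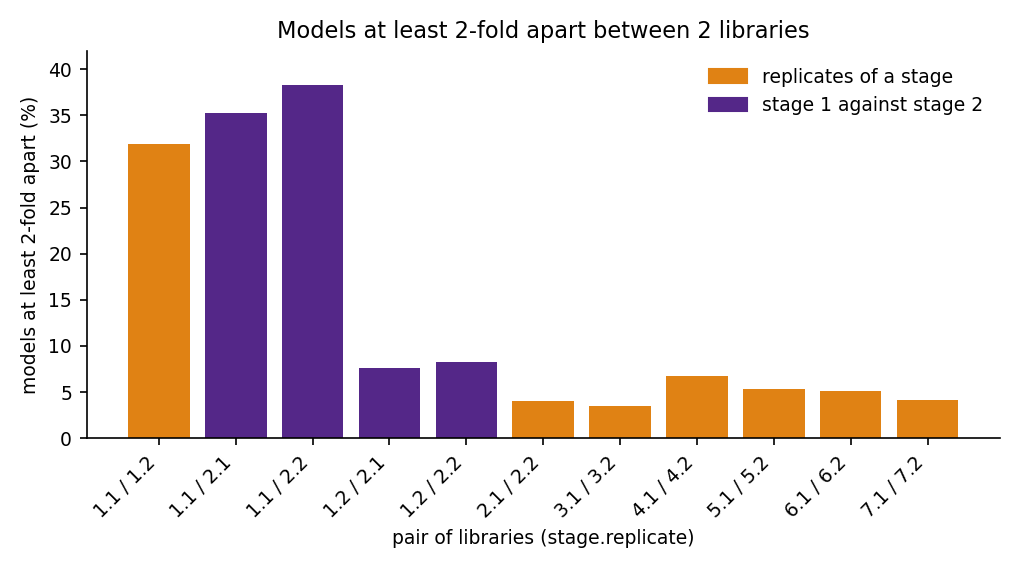
Percentage of the 44450 tested models at least 2-fold apart, on the log2(RPKM + 1) scale, between 2 libraries named as stage.replicate. Orange bars are replicates of a stage and purple bars set stage 1 against stage 2; the bars of stage 1 replicate 1 reach 31.9% to 38.2%, and no other bar passes 8.25%.

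The RPKM values rest on 112909641 and 87158074 reads in stage 1 replicates 1 and 2, and on 121741700 and 90222493 reads in stage 2. At a model of the median length of 1404 bases, 1 RPKM stands for 159, 122, 171 and 127 reads in the same order. At least 1 RPKM was reached by 32209 models in stage 1 replicate 1, by 37270 in replicate 2, and by 38735 and 38754 in the stage 2 libraries. A run of 52 models with adjoining identifiers on chromosome 13 took 3.44% and 15.3% of the reads in stage 1 replicates 1 and 2, and 1.34% and 11.6% in stage 2 replicates 1 and 2. The part of this run in the results was not tested beyond rescaling without it.

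More models rose than fell from stage 1 to stage 2. In the limma fit of all 14 libraries, 789 of 44450 models passed (1.78%; adjusted p under 0.05 and at least 2-fold), of which 625 models of 495 loci were higher at stage 2 (1.41%) and 164 models of 154 loci were lower (0.369%). In all 789 the groups did not overlap. Such separation was common, since both stage 2 libraries lay above both stage 1 libraries at 15093 models (34.0%) and below both at 5265 (11.8%). The median change over all tested models was 0.24 log2 units. With quantile normalization the split was 409 higher and 308 lower, with upper quartile scaling 297 and 140, and with RPKM rescaled without the chromosome 13 run 349 and 175, so that the share of higher calls went from 79.2% to 57.0%, 68.0% and 66.6%. On recovered reads, limma voom with scaling by the trimmed mean of M values (TMM) gave 265 and 84, and with library totals only 1093 and 100 (91.6% higher).

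The number of calls moved with the libraries and the error used in the fit. When limma used the 4 libraries alone, 0 models passed, with 3851 at an unadjusted p under 0.05. When each stage had its own weight, stage 1 received 0.184 and 0 models passed, with 3819 at an unadjusted p under 0.05. Without stage 1 replicate 1, 70 models were higher and 68 lower. Without stage 1 replicate 2, 10889 were higher and 3288 lower. Without stage 2 replicate 1 the counts were 243 and 55, and without stage 2 replicate 2 they were 2 and 7. Leaving out any 1 library of stages 3 to 7, which enter only through the pooled error, left 276 to 372 models higher.

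Read against each stage 1 library alone, the stage 2 mean was at least 2-fold above stage 1 replicate 1 at 12061 models (27.1%) and below it at 4021 (9.05%). Against stage 1 replicate 2 it was above at 2516 models (5.66%) and below at 616 (1.39%). Of the 12061 models above replicate 1, 10468 (86.8%) were within 2-fold of replicate 2 and 1519 (12.6%) were also 2-fold above it. Of the 4021 below replicate 1, 3263 (81.1%) were within 2-fold of replicate 2, 266 (6.62%) were also 2-fold below it, and 492 (12.2%) were 2-fold above it. A count that needs no test asked that both stage 2 libraries lie 2-fold beyond both stage 1 libraries. It held for 846 models of 662 loci above (1.90%) and for 173 models of 158 loci below (0.389%). Of the 625 models that rose, 519 (83.0%) were among the 846, which is 61.3% of those. Of the 164 that fell, 111 (67.7%) were among the 173, which is 64.2% of those.

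**Figure D2:**
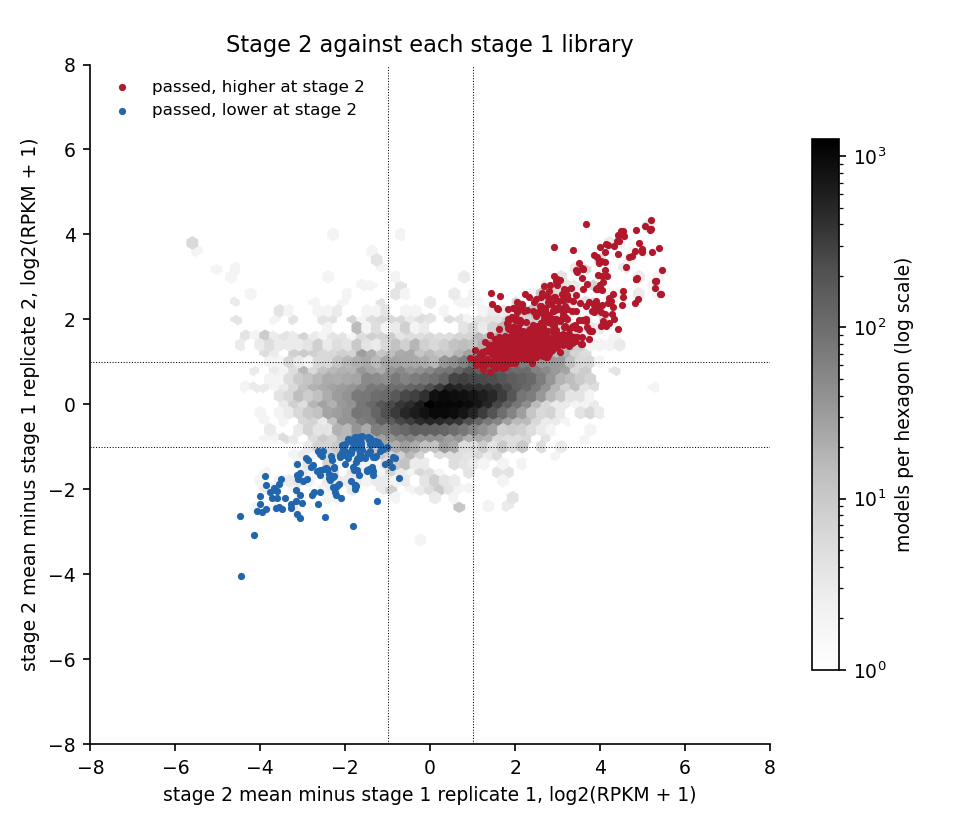
Stage 2 mean minus stage 1 replicate 1 (horizontal) and minus stage 1 replicate 2 (vertical), both in log2(RPKM + 1) units, for the 44450 tested models; grey hexagons count models on a log scale, dots are the models that passed (red, 625 higher; blue, 164 lower) and dotted lines mark 2-fold. The grey cloud is wider along the horizontal axis, with 27.1% of models 2-fold above replicate 1 and 5.66% 2-fold above replicate 2.

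Within stage 1, most models that passed were nearer to stage 2 in replicate 2, though these values also entered the choice of the models. Of the 625 that rose, 585 (93.6%) were higher in stage 1 replicate 2 than in replicate 1, against 68.7% of all tested models. Of the 164 that fell, 142 (86.6%) were lower in stage 1 replicate 2, against 30.9% of all tested models. Within stage 2, 537 of the 625 (85.9%) were higher in replicate 2, against 42.4% of all tested models. Over all tested models, the difference between the stage 1 replicates correlated with the change from stage 2 to stage 3, which shares no library with it, at r = 0.574 (a description across models, with no p).

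The list of isocitrate lyase and malate synthase had 2 of 3 models past the test. It was added after the files had been read, so its counts are a description and no test. Isocitrate lyase rose at 2 of 2 models taken as this enzyme, where 1.41% of all models rose. The first was at 22.6 and 139.0 RPKM in stage 1 replicates 1 and 2 and at 1039 and 837.2 RPKM in stage 2, a change of 4.02 ± 0.69 log2 units (SE; limma, adjusted p = 0.0209). The second was at 14.6 and 110.7 RPKM and then at 783.7 and 579.9 RPKM (4.02 ± 0.73, adjusted p = 0.0261). In both, all stage 2 values lay above all stage 1 values, and stage 1 replicate 2 lay about midway on the log scale. Malate synthase, the other enzyme of the cycle, was already at 778.2 and 1054 RPKM at stage 1, with 1733 and 1377 RPKM at stage 2 (0.77 ± 0.43, adjusted p = 0.314), and did not pass. The 2 calls were lost without stage 1 replicate 1, without either stage 2 library, and with quantile normalization.

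The Rubisco small subunit rose at 3 of 3 listed models, where 1.41% of all models rose, with a median change of 3.40 log2 units. The first was at 9.23 and 24.6 RPKM at stage 1 and at 118.5 and 155.0 RPKM at stage 2 (3.08 ± 0.51, adjusted p = 0.0177). The second was at 16.6 and 39.0 RPKM and then at 218.3 and 358.8 RPKM (3.40 ± 0.52, adjusted p = 0.014). The third was at 19.5 and 45.7 RPKM and then at 255.7 and 417.9 RPKM (3.41 ± 0.53, adjusted p = 0.0141). The last 2 kept a ratio of 0.850 to 0.859 in every library, so their reads may be shared and they are not separate evidence. The calls were lost without stage 1 replicate 1 or stage 2 replicate 2, and that of the first model also without stage 2 replicate 1. At stage 6 the same models stood between 7545 and 17734 RPKM, so stage 2 was low in their later range.

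Rubisco activase, which restores inhibited Rubisco, had 0 of 4 listed models past the test. The first was at 1.53 and 3.46 RPKM at stage 1 and at 31.3 and 9.31 RPKM at stage 2 (adjusted p = 0.102). The second was at 1.07 and 2.32 RPKM and then at 27.3 and 6.05 RPKM (adjusted p = 0.11). In both the groups did not overlap, where 34.0% of all models had both stage 2 libraries above both stage 1 libraries. Stage 2 replicate 1 was the higher of the stage 2 libraries for these models, the reverse of the small subunit.

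Lipoxygenases, which add oxygen to polyunsaturated fatty acids, differed in whether they passed. The 4 listed models on chromosomes 13 and 15 outside the seed isoforms all rose, where 1.41% of all models rose. Their median change was 4.37 log2 units, with adjusted p from 0.0219 to 0.037. They were at 2.30 and 9.30, 1.22 and 4.57, 1.11 and 3.46, and 0.998 and 3.58 RPKM in stage 1 replicates 1 and 2. At stage 2 they were at 49.7 and 302.6, 25.4 and 187.2, 28.5 and 202.2, and 21.2 and 141.5 RPKM. Each stage 2 library was above each stage 1 library, and stage 2 replicate 2 was the highest of the 4 libraries for every model. All 4 calls were lost without stage 1 replicate 1, without stage 2 replicate 2, and with a pseudocount of 5, and the second model passed in 5 of 25 other settings.

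Of 12 listed lipoxygenases on chromosomes 7 and 8, taken as vegetative forms, 5 were tested and 2 rose, where 1.41% of all models rose. The higher of these was at 1.70 and 2.69 RPKM at stage 1 and at 33.2 and 113.5 RPKM at stage 2 (4.31 ± 0.54, adjusted p = 0.00744). It passed without stage 1 replicate 1 but not without stage 2 replicate 2. The other was at 0.406 and 0.148 RPKM and then at 2.70 and 7.16 RPKM (2.11 ± 0.37, adjusted p = 0.0236), a call lost without stage 1 replicate 1 or stage 2 replicate 2.

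The 3 listed seed lipoxygenases, abundant enzymes of the dry seed, had 0 past the test and a median of -1.78 log2 units, where the median of all models was 0.24. With stage 1 replicate 1 left out that median was -1.11, and with stage 1 replicate 2 left out it was -0.63. Dropping stage 2 replicate 1 gave -0.57 and dropping stage 2 replicate 2 gave -2.37. The most abundant was at 36.7 and 306.4 RPKM in stage 1 and at 10.3 and 85.5 RPKM in stage 2, so its groups overlapped and its replicates differed more than its stages (adjusted p = 0.414). A second was at 15.2 and 2.69 RPKM and then at 0.502 and 0.951 RPKM (adjusted p = 0.0552).

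The 2 listed vegetative storage proteins are known from leaves and stems as a store of amino nitrogen. Both had each stage 2 library at least 2-fold above each stage 1 library, as did 1.90% of all models, but neither passed. The first was at 1.13 and 4.07 RPKM at stage 1 and at 17.3 and 171.7 RPKM at stage 2 (4.10 ± 1.22, adjusted p = 0.101). The second was at 3.83 and 12.5 RPKM and then at 27.7 and 513.4 RPKM (3.91 ± 1.37, adjusted p = 0.142). The list's median went from 4.00 to 2.15 without stage 2 replicate 2. That library was the highest in both, as it was for the lipoxygenases that rose.

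**Figure D3:**
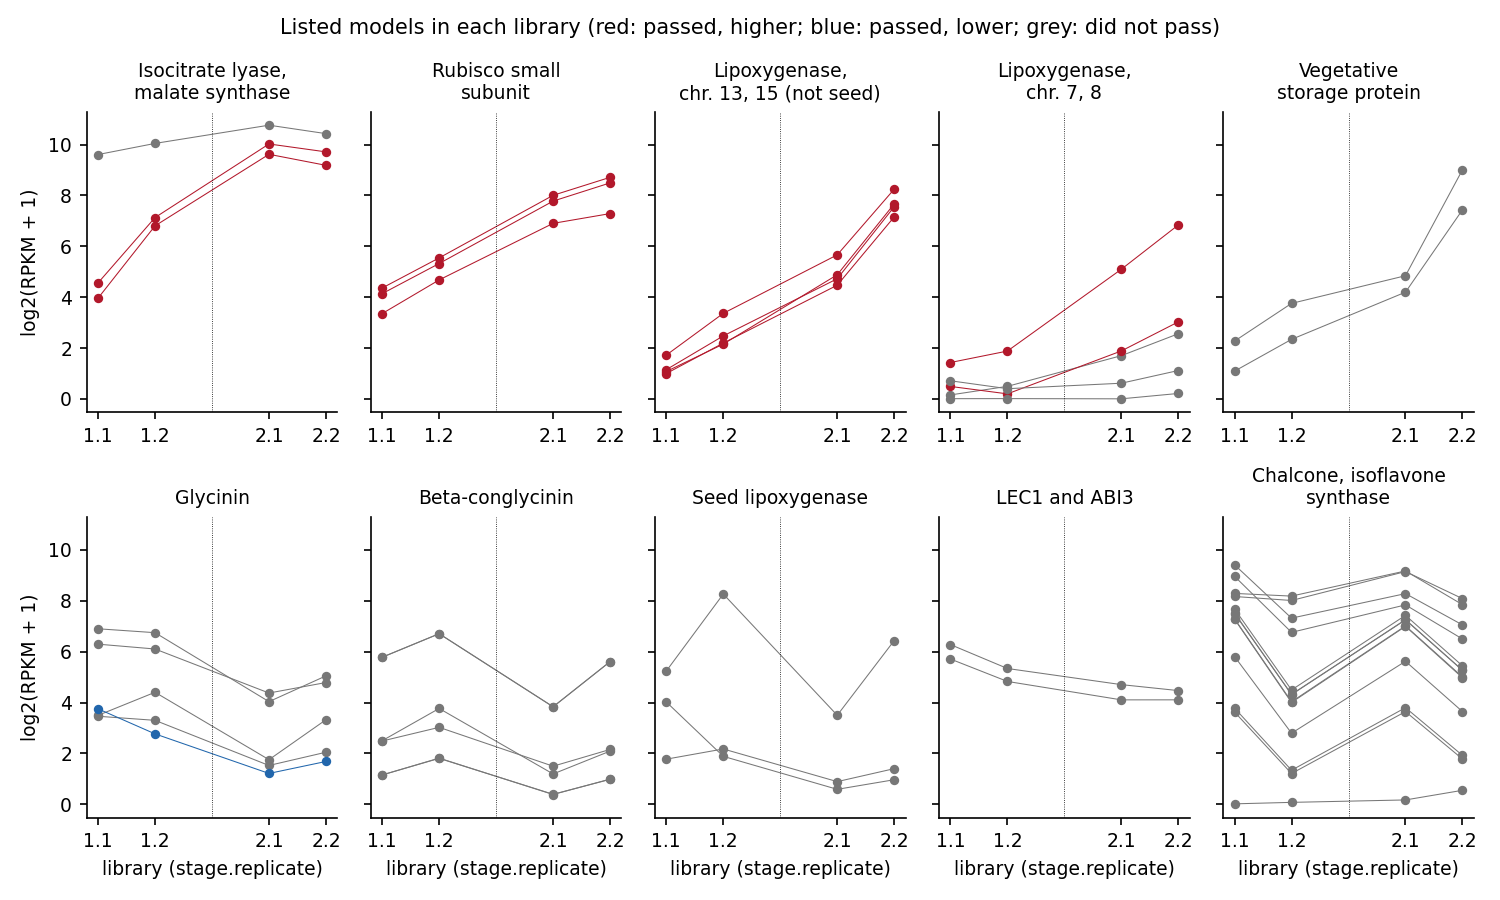
Level in log2(RPKM + 1) of each tested member of 10 lists in stage 1 replicates 1 and 2 and stage 2 replicates 1 and 2 (stage.replicate on the horizontal axis); a line joins the values of 1 model and gives no order to replicates. Red models passed as higher (2 of 3, 3 of 3, 4 of 4 and 2 of 5 in the first 4 panels), the blue glycinin passed as lower, and grey models did not pass.

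Storage globulin RNA was lower in both stage 2 libraries than in both stage 1 libraries at all 11 tested models, but 1 of the 11 passed. These RNAs, which mark the seed, were above 0 in all 4 libraries at the 11 models. All 5 listed glycinins had both stage 2 libraries below both stage 1 libraries, where 11.8% of all models did, with a median of -1.62 log2 units. The most abundant was at 118.3 and 106.2 RPKM and then at 15.4 and 32.1 RPKM (adjusted p = 0.13). The next was at 77.4 and 67.7 RPKM and then at 19.7 and 26.6 RPKM (adjusted p = 0.119). The 1 glycinin that fell was at 12.5 and 5.81 RPKM and then at 1.32 and 2.21 RPKM (-1.81 ± 0.35, adjusted p = 0.0345), a call lost in 17 of 25 other settings.

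The 6 tested beta-conglycinins of 7 listed also had no overlap between the groups, with a median of -1.21 log2 units and 0 past the test (adjusted p from 0.109 to 0.25). The median was -0.62 without stage 2 replicate 1 and -0.76 without stage 1 replicate 2, and 2 of the 6 passed with quantile normalization. The most abundant pair was at 53.9 and 103.3 RPKM at stage 1 and at 13.2 and 47.7 RPKM at stage 2. The models of that pair agreed within a ratio of 0.998 to 1.00 in every library, and a second pair within 0.975 to 1.04, so their reads cannot be assigned to either model. The 1 tested P34 model, a seed protein of the papain family, was at 22.2 and 9.36 RPKM and then at 4.42 and 3.15 RPKM (-1.71 ± 0.38, adjusted p = 0.0515). In bulk tissue, fewer cells of a type and less of an RNA per cell cannot be told apart.

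Other seed proteins went both ways. Of the 5 listed lectin and Kunitz trypsin inhibitor models, 0 passed. The model highest in stage 1 replicate 1 was at 29.9 and 13.4 RPKM at stage 1 and at 3.84 and 5.84 RPKM at stage 2 (adjusted p = 0.0592). Another was at 9.77 and 38.0 RPKM and then at 21.8 and 62.1 RPKM (adjusted p = 0.466), with overlapping groups. The list's median was 0.47 log2 units in the fit, but -0.29 against stage 1 replicate 1 alone, -0.04 against stage 1 replicate 2 alone and -0.18 without stage 2 replicate 1, so its sign was not settled.

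The list of the embryo regulators LEC1 and ABI3, transcription factors of seed maturation, had 2 tested models of 4 and 0 past the test. The 2 models under the filter, Glyma07g39820.1 and Glyma17g00950.1, were at 0.0113 to 1.55 RPKM in the stage 1 and stage 2 libraries. The values of the tested models, Glyma08g47240.1 and Glyma18g38490.1, may therefore describe only 1 of the 2 regulators. The first tested model was at 51.3 and 27.4 RPKM and then at 16.2 and 16.2 RPKM (adjusted p = 0.108). The other was at 76.5 and 39.4 RPKM and then at 25.0 and 21.1 RPKM (adjusted p = 0.149). In both, the groups did not overlap, where 11.8% of all models had both stage 2 libraries below both stage 1 libraries. The tested models were at 2.61 to 7.70 RPKM by stage 3.

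Phytochromes, the red light receptors, had 5 tested models of 6 and 0 past the test. The most abundant was at 22.8 and 91.3 RPKM at stage 1 and at 121.8 and 92.6 RPKM at stage 2 (adjusted p = 0.213), so stage 1 replicate 2 was level with stage 2 replicate 2. The list's median was 1.49 log2 units against replicate 1 and 0.17 against replicate 2. The 7 tested fatty acid desaturases of 8 listed, which introduce double bonds into oils and membrane lipids, also had 0 past the test. Their median was 1.80 against replicate 1 and 0.34 against replicate 2. One of them was at 20.7 and 104.7 RPKM at stage 1 and at 111.0 and 132.9 RPKM at stage 2 (adjusted p = 0.221). The list did not go 1 way. Glyma14g27990.1 was at 166.5 and 34.0 RPKM and then at 42.4 and 44.3 RPKM (adjusted p = 0.615). Both stage 2 libraries lay above both stage 1 libraries at 4 of the 7 desaturases and below both at 1. Over all tested models these shares were 34.0% and 11.8%.

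Chalcone synthase, the entry enzyme of flavonoid synthesis, and isoflavone synthase had 0 of 13 tested models past the test. Their median was 0.33 log2 units in the fit, -1.24 against stage 1 replicate 1 and 1.52 against replicate 2, so its sign turned with the library. It was also negative, at -0.64, when stage 2 replicate 1 was dropped. Not every model turned. Against stage 1 replicates 1 and 2, Glyma07g32330.1 was at 0.45 and 0.61 log2 units and Glyma13g24200.1 at 0.22 and 0.33, both with overlapping groups. Glyma19g27930.1, below 1 RPKM in these libraries, was at 0.34 and 0.28. The other tested models of the list turned as the median did. A model that shows this was at 182.4 and 18.8 RPKM in stage 1 and at 152.0 and 37.5 RPKM in stage 2 (adjusted p = 0.855). In both stages replicate 1 was higher than replicate 2. Several models of this list on chromosome 8 kept nearly constant ratios in all libraries, so they are not separate evidence.

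The 2 largest rises and the 2 largest falls with at least 10 RPKM in the higher stage are given by identifier. Glyma14g31400.1, 402 bases long, had 0.485 and 1.71 RPKM at stage 1 and 22.7 and 126.6 RPKM at stage 2 (4.78 ± 0.74 log2 units, adjusted p = 0.014), and reached a mean of 464.3 RPKM at stage 5. Glyma15g03040.2, which is also 1 of the 4 listed models on chromosomes 13 and 15 given above, followed (4.66 ± 0.81, adjusted p = 0.0219). In both, stage 2 replicate 2 was several times stage 2 replicate 1, and neither passed without it or without stage 1 replicate 1.

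Glyma02g03420.1 fell from 38.7 and 29.1 RPKM at stage 1 to 1.53 and 0.311 RPKM at stage 2 (-4.25 ± 0.30, adjusted p = 0.000986). It passed in 23 of 25 other settings, failing with the 4 libraries alone and with stage weights, and its mean was at or below 0.551 RPKM at stages 3 to 7. Glyma08g18400.1 fell from 75.3 and 35.0 RPKM to 5.10 and 2.01 RPKM (-3.61 ± 0.49, adjusted p = 0.00962), a call lost without stage 1 replicate 1 or stage 2 replicate 2. With at least 10 RPKM in the higher stage, these 2 also had the widest gap among models with groups 2-fold apart and lower at stage 2. Among such models higher at stage 2, the widest gap was at a chromosome 17 model of 381 bases. It was at 1.02 and 3.37 RPKM and then at 61.9 and 58.6 RPKM (adjusted p = 0.0139). The next was a chromosome 19 model at 0.471 and 0.916 RPKM and then at 23.6 and 26.6 RPKM (adjusted p = 0.0175). Both calls were lost without stage 1 replicate 1, stage 2 replicate 1 or stage 2 replicate 2.

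Models that rose had still higher medians at later stages. Their median level was 0.532 and 2.11 RPKM in stage 1 replicates 1 and 2, 8.29 and 12.1 RPKM in stage 2, 17.0 and 16.3 RPKM at stage 3 and 27.5 and 30.8 RPKM at stage 4. Their part of the summed RPKM was 0.194% and 0.467% at stage 1, 2.22% and 2.95% at stage 2, and 24.8% and 23.0% at stage 6. Only 2 of the 625 had their highest mean at stage 2, while 214 (34.2%) had it at stage 6 and 156 (25.0%) at stage 4. Over all tested models, 5.09% were highest at stage 6 and 16.8% at stage 4.

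Models that fell had still lower medians at later stages. Their median was 10.5 and 5.97 RPKM at stage 1, 1.70 and 1.51 RPKM at stage 2, and 0.205 and 0.138 RPKM at stage 6. Of the 164, 159 (97.0%) were highest at stage 1, as were 27.1% of all tested models, and 112 (68.3%) were lowest at stage 6, as were 44.5% of all. Stage 1 values helped choose these models, so their highest stage is partly fixed by that choice. A mean below 1 RPKM over the later stages was found for 117 of the 164. Such models can pass the filter through their early values alone, so the filter also bears on the later medians and the lowest stage. The part of the filter in these values was not tested. The later stages share no library with the comparison, but they enter its pooled error.

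**Figure D4:**
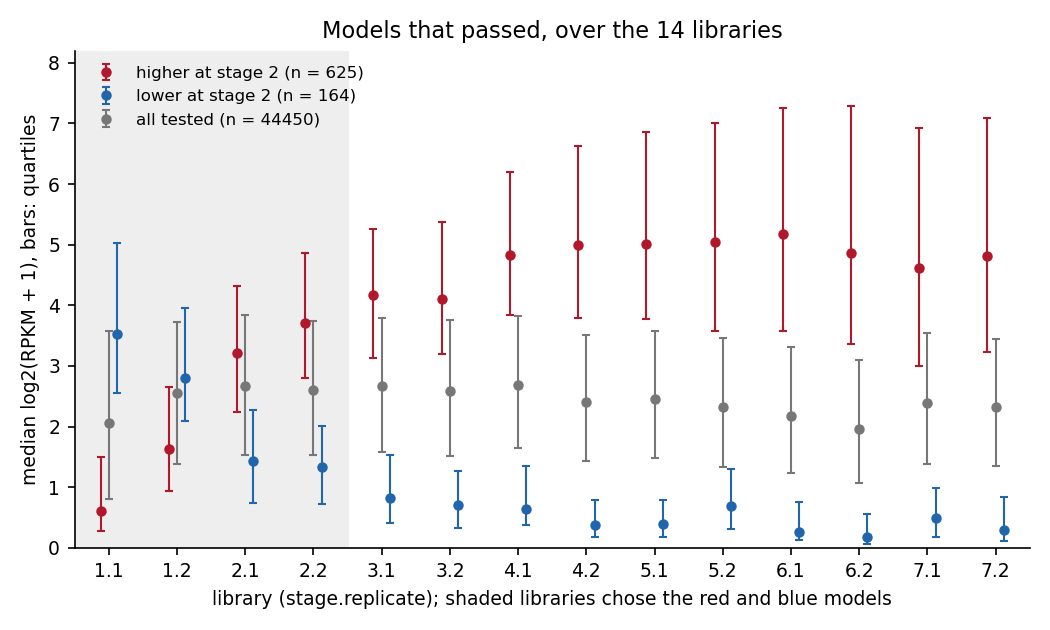
Median level in log2(RPKM + 1), with quartiles as bars, in each of the 14 libraries (stage.replicate) for the 625 models that rose (red), the 164 that fell (blue) and all 44450 tested (grey). Shaded libraries entered the choice of models; to the right of them the red medians stay above 16 RPKM and the blue medians below 0.8 RPKM.

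Among models with a mean of 10 to 30 RPKM at stages 3 to 7, 2.23% rose, at 30 to 100 RPKM 4.92%, and at 100 RPKM or more 19.2% (162 of 842), while 0 of those 842 fell. Classes of lower later level are not compared, because a model low at stages 3 to 7 can pass the filter through its early values alone and because the scale compresses its changes. Model length also differed, with a median of 1322 bases for those that rose, 1078.5 for those that fell and 1404 for all tested. The share that fell was 0.604% at 500 to 1000 bases and 0.1% at 3000 bases or more. The share that rose was 1.56% and 0.635% in the same classes. The median of stage 2 replicate 2 minus replicate 1 was 0.02 and -0.25 log2 units there, so replicates also differed by length. The cause of these differences was not tested.

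RNAs already abundant at stage 1 were read as a group. The 100 models with the highest level in the lower stage 1 library, outside the chromosome 13 run, had medians of 451.4 and 382.3 RPKM at stage 1 and 443.7 and 311.9 RPKM at stage 2, with 0 higher and 1 lower past the test, where 1.41% and 0.369% of all models passed. Both stage 2 libraries were 2-fold below both stage 1 libraries at 5 of them, where 0.389% of all models were, and 2-fold above at 0. Of the 100 highest by the lower stage 2 library, 5 rose and 0 fell. In that set, both stage 2 libraries were 2-fold above both stage 1 libraries at 12 and 2-fold below at 0. Each set of 100 models covered 56 loci. Each was chosen by levels at 1 of the stages compared, which favours falls in the first set and rises in the second. These counts therefore do not show how abundant RNAs changed. The 10 highest models of each library took 4.13% and 10.5% of RPKM at stage 1 and 3.14% and 7.85% at stage 2, and in both second replicates all 10 lay in the chromosome 13 run.

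From stage 1 to stage 2, 1349 models (3.03% of the number tested) went from below 1 RPKM in both libraries to at least 1 RPKM in both, and 251 (0.565%) went the other way. None of them had 0 reads in both libraries of the lower stage.

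Models that passed were found on every numbered chromosome. Chromosome 13 held 11.0% of those that rose and 6.77% of those tested, and chromosome 11 held 10.4% of those that fell and 5.14% of those tested. Of the 495 loci that rose, 48 (9.70%) had a locus that also rose directly before or after it among the tested loci in identifier order, as did 2.74% of all 35547 tested loci. Of the 154 that fell, 14 (9.09%) had one that fell beside it, as did 0.861% of all. Runs were allowed at most 1 other tested locus between members. A run of 4 loci on chromosome 5 rose together, its most abundant model being at 5.86 and 35.1 RPKM at stage 1 and at 255.6 and 158.8 RPKM at stage 2 (adjusted p = 0.0243). A run of 3 on chromosome 16 fell together, with the first model at 111.0 and 67.6 RPKM and then at 8.62 and 18.6 RPKM (adjusted p = 0.0134). The calls of these 2 models were lost without stage 1 replicate 1, stage 2 replicate 1 or stage 2 replicate 2. Neighbouring copies can share reads, so the members of a run may not be separate.

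Different models of a locus seldom diverged. Of 6201 loci with at least 2 tested models, 6 had models that differed by at least 1 log2 unit in their change, and 0 loci passed in both directions. Of 111 loci with several tested models and at least 1 that passed, 88 had all of them pass.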

How the data were processed

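RNA sequencing libraries of soybean cotyledons were read as deposited RPKM values per gene model, per the file headers (78773 models). The submitters' processing notes name Bowtie as the tool. Its version, the genome build, annotation, strandedness and the handling of reads with several matches: not given in the sources used here. Whole reads and model lengths were recovered from the RPKM steps within 0.003 reads for all 67016 models above 0 in at least 2 libraries (100%). Totals count read assignments and may hold a read more than once.

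Values were analysed as log2(RPKM + 1) in limma 3.58.1 (R 4.3.3), with trend and robust moderation, 14 libraries, a mean per stage and 7 residual degrees of freedom. The spread is pooled over stages, so the error can be too small for stage 1. Two-sided p-values were adjusted by Benjamini-Hochberg over 44450 models. Named models were the 2 largest rises and falls and the 2 widest gaps each way, 1 model per locus. All had at least 10 RPKM in the higher stage. Stage comparison, lists and rules were chosen with earlier results of these data known. Alternatives changed the filter, pseudocount, scaling, weights, libraries and replicate block, and limma voom was run on recovered reads, with and without TMM factors.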

Additional observations from a re-analysis of the deposited data

How the results depend on the processing

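The counts of models that passed (625 higher, 164 lower) moved with most settings. They were 388 higher with no filter; 85 lower at 5 RPKM; 1398 and 100 with a pseudocount of 0.1; 141 and 81 with a pseudocount of 5; 409 and 308 with quantile normalization. Upper quartile scaling gave 297 higher, rescaling without the chromosome 13 run 349 higher, and limma voom on recovered reads 265 and 84 with TMM factors, or 1093 and 100 with library totals only, a setting added after the data were seen. The 4 libraries alone and weights per stage each gave 0 and 0. Leaving out 1 library gave 2 to 10889 higher and 7 to 3288 lower. Leaving out a library of stages 3 to 7 gave 276 to 372 higher, and the cause of this drop was not tested. In a fit without 1 stage 1 or stage 2 library, the remaining library is assumed to vary like the other stages.

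The replicate block gave 1148 higher and 271 lower. The replicate differences of 21 pairs of stages correlated at -0.17 to 0.60, with 18 over 0.1 and stages 1 and 2 at 0.389. The chromosome 13 run also took more of the reads in replicate 2 than in replicate 1 at every stage. The labels do not say that a number marks a shared source, and not every pair was over 0.1, so the main fit did not pair libraries. Whether the replicate number marks a shared source was not tested. In the block, 2 vegetative storage proteins, 2 beta-conglycinins, 2 glycinins, 1 lectin or Kunitz inhibitor model and the P34 model passed.

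Counts of models with groups 2-fold apart (846 and 173) were 2226 and 320 with a pseudocount of 0.1, 267 and 68 with a pseudocount of 5, and 515 higher with quantile normalization. Leaving out 1 library gave 1163 to 10053 higher and 330 to 3248 lower. Of the 789 models that passed, 0 changed sign in the 25 other settings, which is no sign of stability because their groups do not overlap. The median of the lectin and Kunitz inhibitor list turned negative without either stage 1 library or stage 2 replicate 1. The median of the chalcone and isoflavone synthase list turned negative without stage 1 replicate 2 (-1.24), without stage 2 replicate 1 (-0.64) and with voom and TMM factors (-0.04). Quantile normalization shifted the median change of all models by -0.29, upper quartile scaling by -0.10, and voom by -0.18. Of 900 values for lists and named models, 763 were counted as unchanged, 108 moved and 29 lost the call. Many of the 763 could not move, so their number does not measure stability. A list median is fixed when libraries outside the comparison are left out, or when only the weights or the block change. Lists with 0 models past the test that stayed at 0 were also counted as unchanged, as were some small changes in the number of calls.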
